A study of Rattus norvegicus with 8 samples.

Results

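Nascent RNA of 8 genes of the myelin sheath was followed in 8 bromouridine sequencing (BrU-seq) libraries of cultured rat neurons: Mbp, Mobp, Cnp, Cldn11, Tspan2, Ugt8, Mag and Mog. The genes were chosen by name, as myelin proteins and a myelin lipid enzyme, and all 8 were found among the 16871 genes of the deposited count table. Of them, 6 were among the 11372 genes that passed the low-count filter and were tested, and Mag and Mog were not. BrU-seq reads transcription in progress: bromouridine enters RNA as it is made, and only tagged molecules are pulled down for sequencing. Hippocampal and cortical cells of newborn (P1-P2) Sprague Dawley pups had been grown together. On day 14 in vitro they were given vehicle (water, H) or 1 µM tetrodotoxin (TTX, T), which silences neurons by closing sodium channels, and this lasted 24 h. After a washout of 48 h, vehicle or TTX was given again for 4 h on day 17, with 2 mM bromouridine in the last 30 min. The groups are HH (vehicle both times), HT (vehicle, then TTX), TH (TTX, then vehicle) and TT (TTX both times), with 2 libraries each. Every group thus went through the same media changes, washout and labelling. The labels do not say how many pups went into a culture or whether the replicates were separate cultures, so that a p-value here speaks only of how far libraries scatter, and that scatter may be technical. They name the cells as neurons, and the glia that such cultures also hold are not counted in them.

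Myelin is the multilayered membrane that oligodendrocytes wrap around axons. Oligodendrocytes arise from dividing progenitors, pass through a premyelinating stage and then make large amounts of a small set of structural proteins and of galactolipids. In the brain this maturation is known to respond to the electrical activity of neighbouring neurons. In a culture of mixed cells, more cells of a type and more transcription per cell cannot be told apart, and this holds for every value below.

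Total counts per library ran from 3489176 to 4959887. TT replicate 2 (4907817 counts) and TH replicate 2 (4959887) were the deepest. Levels are CPM, the count scaled to the TMM-normalised library total. They are compared between libraries and not between genes, since gene lengths were not used here. In each of the 7 comparisons no gene of the 11372 tested passed a Benjamini-Hochberg adjusted p of 0.05 in edgeR (0% called in each), and the myelin genes are therefore described by their levels. HH replicate 1 stood apart in genes switched on by firing. There the summed level of 13 rapid activity-response genes was 733 CPM, against 132 to 236 CPM in the other 7 libraries. Among these 7, vehicle and TTX on day 17 overlapped. HH replicate 2 stood at 141, TH replicates 1 and 2 at 163 and 132, HT at 236 and 151, and TT at 142 and 141. Whether firing differed between vehicle and TTX cultures at labelling was not tested. TT replicate 2 stood apart in the myelin genes themselves, as shown next. The larger shifts on leaving out a library are given beside the results they touch.

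Mbp encodes myelin basic protein, which holds the inner faces of the myelin membrane together. The same locus also makes golli transcripts from an upstream start site, which are known in neurons as well. Mbp stood at 85.7 and 134 CPM in the HH libraries (replicates 1 and 2), 85.9 and 107 in HT, 133 and 129 in TH, and 91.9 and 161 in TT. The gap between the replicates of HH and of TT was wider than any difference between group means, and the 4 groups overlapped except for HT, which lay below TH. Mobp, another small basic protein of compact myelin, stood at 23.1 and 24.3 CPM in HH, 23.3 and 24.7 in HT, 25.4 and 19.6 in TH, and 29.4 and 25.1 in TT. It had the flattest profile of the 6 tested members, and its highest library was TT replicate 1.

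Cnp encodes an enzyme of the cytoplasmic channels of myelin and is made early in differentiation. It stood at 17.3 and 20.9 CPM in HH, 29.5 and 26.1 in HT, 26.0 and 26.5 in TH, and 26.9 and 55.2 in TT. HH was lowest, HT, TH and TT replicate 1 lay close together, and TT replicate 2 was 1.87-fold above the next library. Cldn11, the claudin of the tight junctions between myelin layers, stood at 1.23 and 1.56 CPM in HH, 5.43 and 1.97 in HT, 2.76 and 2.83 in TH, and 4.48 and 8.56 in TT. These values rest on 4 to 43 reads per library, and the gene passed the low-count filter through the libraries in which it was high. This limit holds for every count of members below that includes Cldn11. Tspan2, a tetraspanin of the oligodendrocyte membrane, stood at 29.0 and 35.2 CPM in HH, 57.2 and 58.4 in HT, 42.8 and 52.2 in TH, and 62.5 and 82.1 in TT. The 4 groups of Tspan2 did not overlap, with HH lowest, then TH, then HT, then TT. The same full separation in this order was seen in 26 of the 11372 tested genes (0.229%).

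Ugt8 encodes the galactosyltransferase that makes galactosylceramide, the main glycolipid of myelin. It stood at 11.4 and 7.30 CPM in HH, 17.3 and 17.1 in HT, 13.0 and 21.0 in TH, and 20.7 and 44.4 in TT. HH lay below every other library, and TT replicate 2 was 2.11-fold above the next.

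Mag and Mog encode adhesion proteins on the inner and the outermost surface of the sheath and are made late. Mag had 0 and 1 reads in HH, 5 and 2 in HT, 1 and 7 in TH, and 2 and 26 in TT. The 26 reads of TT replicate 2 (exact Poisson 95% interval 16.98 to 38.1) were set against 2 reads in TT replicate 1 (0.242 to 7.22). At a limit of 3 counts, the 0 reads of HH replicate 1 allow up to 0.925 CPM, and their exact interval reaches 1.14 CPM. Intervals of this kind cover counting error only. Mog had 1 to 4 reads in every library, so that no difference between groups was detectable at this depth. In RefSeq, on the newer rat assembly GRCr8, Mog overlaps the gene Zfp57, which held 396 reads over the 8 libraries. Since the strand setting of the counting is not given, the few reads of Mog cannot be told apart from those of its neighbour. Tspan2 overlaps Tshb, which had 0 reads in all libraries, and 2 long non-coding RNAs. Long non-coding RNAs also overlap Mbp and Mag, and a pseudogene overlaps Ugt8, so that the same limit holds for these genes.

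**Figure D1:**
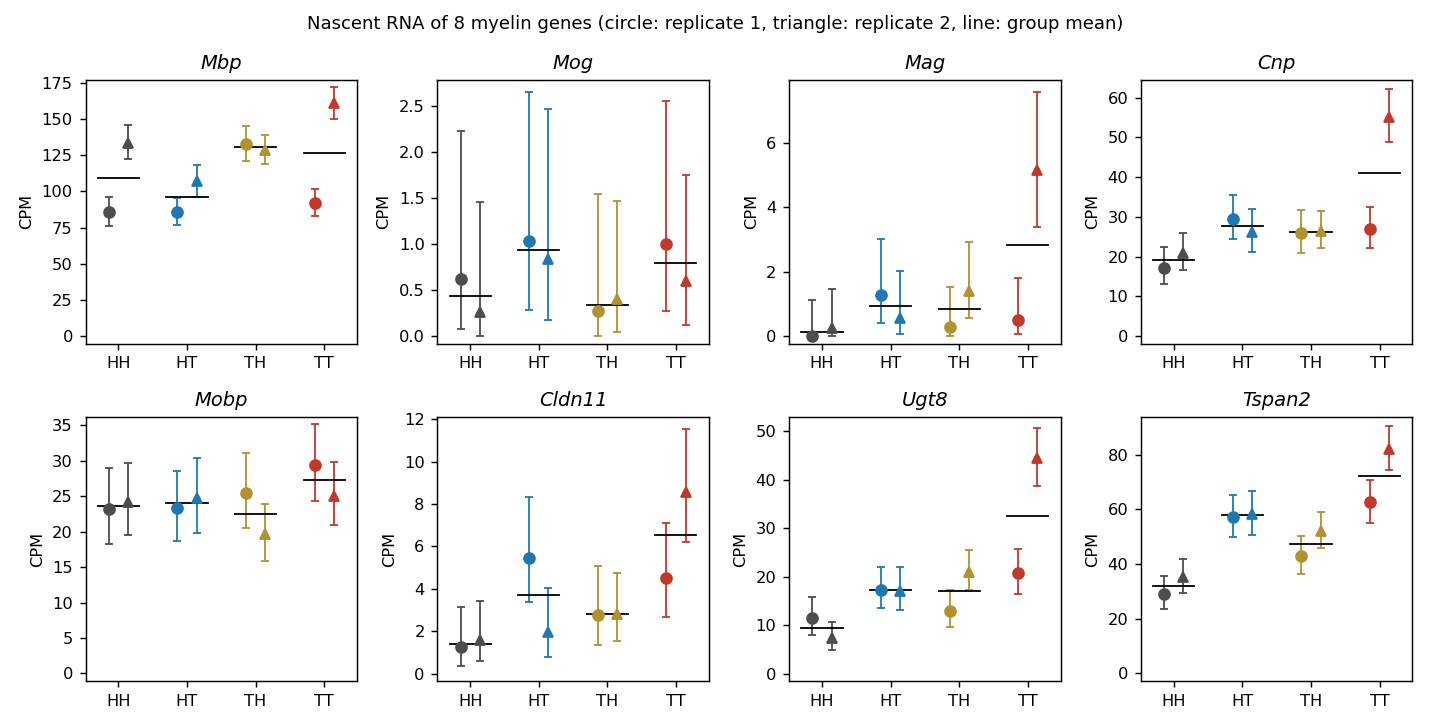
Nascent level (CPM) of the 8 myelin genes in each library of the groups HH, HT, TH and TT. Circles are replicate 1, triangles replicate 2, vertical bars exact Poisson 95% intervals (counting error only) and horizontal lines group means. TT replicate 2 is the highest point for 6 genes, while Mobp stays between 19.6 and 29.4 CPM.

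Stretches of sequence before the start of Cnp and Mobp are shown as examples, Cnp being highest in TT replicate 2 and Mobp nearly level. They come from RefSeq (GRCr8), in which 7 of the 8 genes had a promoter entry, Mog being the other. They end where the annotated gene begins, 250 bases for Cnp (chr10:86011254-86011503, plus strand) and 135 for Mobp (chr8:128746982-128747116, plus strand). Capitals mark CTTTGT or its reverse complement ACAAAG, the core that SOX proteins such as SOX10 can bind, and CAGCTG, an E-box of the type bound by OLIG2.
Cnp: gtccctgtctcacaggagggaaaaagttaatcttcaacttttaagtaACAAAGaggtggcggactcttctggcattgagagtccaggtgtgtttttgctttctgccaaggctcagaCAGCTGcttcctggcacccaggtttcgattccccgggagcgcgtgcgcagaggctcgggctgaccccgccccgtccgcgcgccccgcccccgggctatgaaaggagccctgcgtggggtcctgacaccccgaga
Mobp: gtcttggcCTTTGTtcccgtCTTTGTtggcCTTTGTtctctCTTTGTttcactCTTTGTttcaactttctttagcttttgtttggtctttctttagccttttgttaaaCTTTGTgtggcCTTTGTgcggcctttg
The Cnp stretch holds 1 match of each motif, and the Mobp stretch holds 7 SOX matches. Over the full window of 250 bases before the tabulated start, Mobp had 8 SOX matches, the highest number among the 33465 windows of the table. Of these windows, 16.3% held at least 1 SOX match on either strand, 0.158% held 3 or more, and 12% held the E-box. No match of either motif lay in the windows of Cldn11, Ugt8 and Tspan2, although Ugt8 stood further above the next library in TT replicate 2 (2.11-fold) than Cnp (1.87-fold). The Mag window held 1 SOX match. Mbp had 2 tabulated starts, the first with 0 matches of either motif and the other with 1 of each. A match describes the letters only.

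The effect of the second TTX was asked first, averaged over both histories. Tspan2, Ugt8, Cldn11 and Cnp stood higher in the cultures given TTX for 4 h, and Mbp and Mobp differed little. Tspan2 had a mean of 65.0 ± 11.6 CPM in the libraries given the second TTX and 39.8 ± 10.02 in those given vehicle (SD, n = 4 libraries each). Its log2 change was 0.72 ± 0.12 (SE), which had the rank of 3 among the p-values of all 11372 genes but did not pass (edgeR adjusted p = 0.192, unadjusted p = 8.79e-05). It was the only tested member whose second-TTX libraries all lay above the vehicle libraries, the nearest being 57.2 and 52.2 CPM. Such a separation upwards was found in 2.69% of the tested genes. Without TT replicate 2, Tspan2 was again the only tested member with it, against 3.81% of genes. DESeq2 called Tspan2 (adjusted p = 0.0219, with 0.114% of genes called), as did edgeR with no low-count filter (adjusted p = 0.0176, 0.107% called). Over all alternatives its adjusted p ran from 0.0176 to 0.709, and without TT replicate 2 its log2 change was 0.62.

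Ugt8 stood at 24.9 ± 13.1 CPM after the second TTX and 13.2 ± 5.76 after vehicle, with a log2 change of 0.91 ± 0.28 (edgeR adjusted p = 0.502). Cldn11 stood at 5.11 ± 2.73 against 2.10 ± 0.819 CPM, with a log2 change of 1.31 ± 0.39 (edgeR adjusted p = 0.413). For Cnp the levels were 34.4 ± 13.9 and 22.7 ± 4.40 CPM, with a log2 change of 0.60 ± 0.21 (edgeR adjusted p = 0.576). These 3 genes had overlapping libraries. Their changes without TT replicate 2 were 0.58, 1.03 and 0.29, in the same order. At an unadjusted p under 0.05, 4 of the 6 tested members were higher and 0 lower (edgeR), against 4.35% of tested genes higher and 2.59% lower. Without HT replicate 1 the number was 2, and the Cldn11 change was 0.85. Without HH replicate 1 the Mbp change was -0.26. Mbp had a log2 change of -0.12 ± 0.20 and Mobp of 0.15 ± 0.13. The 95% interval of the Mobp change ran from 0.905-fold to 1.36-fold, and that of Mbp from 0.670-fold to 1.27-fold.

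Taken within each history, the second TTX gave similar sizes. Where the first treatment had been vehicle (HT against HH), Tspan2 stood 1.79-fold higher (log2 0.84 ± 0.18, n = 2 libraries per group, edgeR adjusted p = 0.519). Cldn11 had a log2 change of 1.39 ± 0.63, Ugt8 of 0.90 ± 0.44 and Cnp of 0.54 ± 0.31. Both HT libraries lay above both HH libraries for these 4 genes, an arrangement found in 18.6% of tested genes. At an unadjusted p under 0.05, 2 members were higher and 0 lower (edgeR), against 3.75% and 2.73% of genes. Without HH replicate 1 the Mbp change was -0.47, and without HH replicate 2 the Ugt8 change was 0.59. The number at that p was 1 without HH replicate 2, HT replicate 1, TH replicate 1 or TH replicate 2, and 4 without either TT library. Without HT replicate 1 the Cldn11 change was 0.47, the remaining HT library being taken to vary as the other groups do. Mbp had a log2 change of -0.19 ± 0.29 and Mobp of 0.016 ± 0.19. In cultures silenced before (TT against TH), Cldn11 had a log2 change of 1.24 ± 0.47, Ugt8 of 0.93 ± 0.37, Cnp of 0.66 ± 0.28 and Tspan2 of 0.60 ± 0.17. Both TT libraries lay above both TH libraries for Tspan2, Cldn11 and Cnp, against 15.9% of tested genes. At an unadjusted p under 0.05, 4 were higher and 0 lower (edgeR), against 1.71% and 0.923%. This number was 0 without TT replicate 2 and 2 without either TH library. Without TT replicate 1 the Cnp change was 1.07. Without TT replicate 2 the changes of Cnp, Ugt8, Cldn11 and Tspan2 were 0.036, 0.26, 0.67 and 0.39. No difference of this change between histories was detected: the interaction ran from -0.24 (Tspan2) to 0.26 (Mobp) on the log2 scale, each with an edgeR adjusted p of 1.00, and 0 members had an unadjusted p under 0.05 (0.73% of genes higher, 0.906% lower). With n = 2 libraries per group its 95% intervals were wide, from -1.31 to 1.37 for Ugt8.

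**Figure D2:**
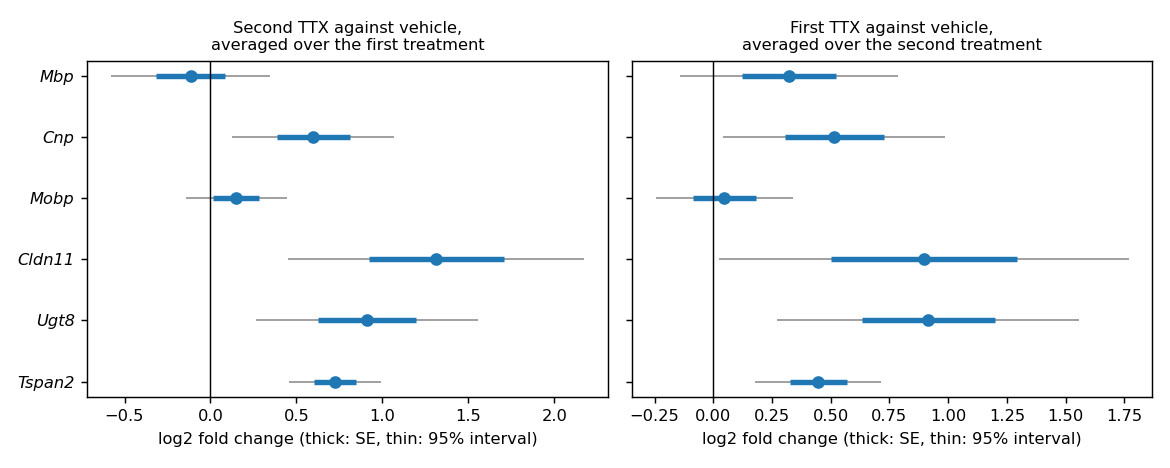
Log2 fold change of the 6 tested myelin genes (rows) for the second TTX against vehicle (left) and for the first TTX against vehicle (right), each averaged over the other treatment. Points are edgeR estimates, thick bars the standard error and thin bars the 95% interval. Tspan2 has the narrowest interval among the 4 genes to the right of 0 in both panels, and Mobp lies near 0 in both.

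The history of silencing was asked next, 24 h of TTX that had ended 48 h before the second treatment. The members that stood higher after the second TTX also stood higher with a history of TTX, averaged over the second treatment. Ugt8 had a log2 change of 0.92 ± 0.28, Cldn11 of 0.90 ± 0.40, Cnp of 0.51 ± 0.21 and Tspan2 of 0.45 ± 0.12, with an edgeR adjusted p of 0.814 for each. Mbp had a log2 change of 0.32 ± 0.20 and Mobp of 0.048 ± 0.13. At an unadjusted p under 0.05, 4 of the 6 tested members were higher and 0 lower (edgeR), against 3.01% and 2.74% of tested genes. The number was 2 without HH replicate 1, HT replicate 2, TH replicate 1 or TT replicate 2, and 1 without TH replicate 2. Mbp stood at 0.18 without HH replicate 1, and Cldn11 at 1.36 without HT replicate 1. Without TT replicate 2 the values for Ugt8, Cldn11, Cnp and Tspan2 were 0.58, 0.62, 0.20 and 0.34. No member had all 4 libraries with a history of TTX above all 4 without, which 1.73% of tested genes had.

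Both steps of the history were also compared directly. Before any second TTX (TH against HH), Cldn11 had a log2 change of 0.97 ± 0.65, Ugt8 of 0.90 ± 0.43, Tspan2 of 0.57 ± 0.18 and Cnp of 0.46 ± 0.31. For these 4 genes both TH libraries lay above both HH libraries, against 16.7% of tested genes. At an unadjusted p under 0.05, 1 was higher and 0 lower (edgeR), against 2.06% and 2.02%. The number was 0 without TH replicate 2, 2 without TH replicate 1 and 3 without either TT library. The Mbp change was 0.25 ± 0.28, and -0.030 without HH replicate 1, while that of Ugt8 was 0.49 without TH replicate 2. Under the second TTX (TT against HT), Ugt8 had a log2 change of 0.93 ± 0.37, Cldn11 of 0.82 ± 0.46, Cnp of 0.57 ± 0.29 and Tspan2 of 0.33 ± 0.17. Both TT libraries lay above both HT libraries for Ugt8, Tspan2 and Mobp, against 18.2% of genes, while those of Mbp, Cnp and Cldn11 overlapped. In this comparison 1 member was higher and 0 lower at an unadjusted p under 0.05 (edgeR), against 1.28% and 1.06%. The number was 0 without HT replicate 2 or TT replicate 2 and 5 without TT replicate 1. The Cldn11 change was 1.74 without HT replicate 1 and 0.29 without HT replicate 2. Without TT replicate 1 the changes of Cnp and Tspan2 were 0.99 and 0.51. The edgeR adjusted p was 0.891 or more in both comparisons. Without TT replicate 2 the TT against HT changes of Cnp, Ugt8, Cldn11 and Tspan2 were -0.048, 0.26, 0.26 and 0.11. The comparisons share libraries, each group entering 2 of the 4 pairs, and are thus not independent of each other.

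The group means followed one order in 4 of the 6 tested members, TT highest, then HT, then TH, then HH, for Cnp, Cldn11, Ugt8 and Tspan2. The group means of 7.08% of tested genes had this order. Without TT replicate 2 it held for Cldn11, Ugt8 and Tspan2, against 6.47% of genes, and without HT replicate 1 for Ugt8 and Tspan2. HT and TH were neighbours whose libraries overlapped in 3 of these 4 genes, Tspan2 being the exception. Both HH libraries lay below the 6 others in the same 4 genes, against 6.58% of tested genes. Cldn11 had 4 and 6 reads in HH and passed the filter through its high libraries, so its low place there is no separate support. In Mag, HH replicate 2 and TH replicate 1 had 1 read each and could not be ranked. HH was low in both replicates for Cnp, Cldn11, Ugt8 and Tspan2. Activity-response genes were high in HH replicate 1 and not in replicate 2, and a link between the 2 patterns was not tested.

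The TT replicates are given separately because they differed most in the myelin genes, of which 4 were at least 1.5-fold apart, against 1 or 2 in the other groups. Over all tested genes they differed least, with 8.46% that far apart against 10.7% to 18.4% in the other groups. TT replicate 2 was the highest of the 8 libraries for 5 of the 6 tested members, Mbp, Cnp, Cldn11, Ugt8 and Tspan2, and for Mag, while 13.2% of tested genes had their highest value there. Its level over that of TT replicate 1 was 2.15-fold for Ugt8, 2.05-fold for Cnp, 1.91-fold for Cldn11, 1.75-fold for Mbp and 1.31-fold for Tspan2. Mobp was at 0.854-fold. A gap of at least 1.5-fold in this direction was seen in 4 of the tested members and in 4.09% of all tested genes, whose median was 1.01-fold. The summed level of the 8 genes was 382 CPM in TT replicate 2 and 168 to 253 CPM in the other 7 libraries. TH replicate 2, as deep as TT replicate 2, had 253.

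The gap between the TT libraries was set beside lists of related genes. Among 11 tested genes of the premyelinating stage, 8 were highest in TT replicate 2 and the median gap was 1.39-fold, with Gpr17 at 1.73-fold and Bcas1, named after its values were seen, at 2.26-fold. Among 9 transcription factors of the lineage 6 were highest there. Myrf, the factor that switches on myelin genes and named here after its values were seen, stood at 24.7 and 68.7 CPM in the TT libraries. Its other libraries lay between 14.5 and 36.0 CPM. Among 12 further myelin and mature oligodendrocyte genes 7 were highest there. The median gap was 1.00-fold for 9 progenitor genes, of which 4 were highest in TT replicate 2 and 2 at least 1.5-fold apart. For 12 genes of dividing cells it was 1.05-fold with 2 highest there, and for 8 astrocyte genes 1.05-fold with 3. It was 0.899-fold for 12 neuronal genes, of which 0 were highest in TT replicate 2. Microglial genes, 4 of them tested, had a median of 2.58-fold, from 0.548-fold to 3.20-fold, and the list of 10 summed to 17.4 and 24.3 CPM in the TT libraries. Whether the makeup of this culture differed was not tested.

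**Figure D3:**
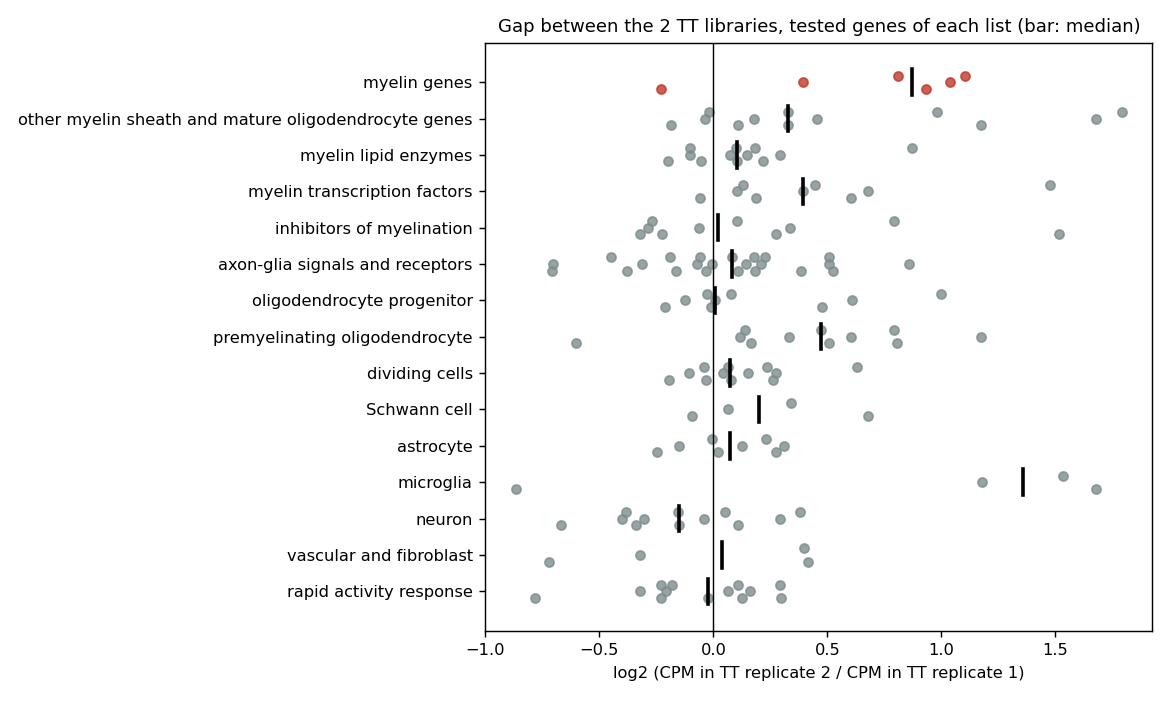
Log2 ratio of the level in TT replicate 2 to that in TT replicate 1, 1 point per tested gene and 1 row per gene list, with the median as a bar. Myelin genes (red) have a median of 1.83-fold, 1.39-fold is seen for premyelinating genes, and progenitor genes centre on 1.00-fold. The 4 microglial genes have a median of 2.58-fold.

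Other parts of the myelin programme were followed for the second TTX, averaged over history. Of 12 tested myelin and mature oligodendrocyte genes, 0 passed the adjusted test and 9 lay above 0 (median log2 change 0.21, against -0.0011 for all genes, of which 49.7% lay above 0). Cd9, a tetraspanin, had a log2 change of 0.69 ± 0.17 (edgeR adjusted p = 0.280). Of the late genes, also named after their values were seen, Mal, Opalin and Ermn stood at 1.5 CPM or less in each library, as did Mog, and Mag did so in all but TT replicate 2. Hapln2 is listed at 0 in every library, as is the lipid enzyme gene Cers2. In all, 1954 of the 16871 genes had no read in any library. Since the annotation used in counting is not given, whether Hapln2 and Cers2 were silent or not counted cannot be told. Of 12 lipid enzymes 6 lay above 0 (median -0.013). Those with the smallest p were Gal3st1, the sulfatide-making sulfotransferase, at 0.78 ± 0.16 and Fa2h, the fatty acid hydroxylase, at 0.57 ± 0.21 (edgeR adjusted p = 0.212 and 0.618). Levels of Gal3st1 ran from 6.17 to 6.26 CPM in HH and 11.6 to 19.5 CPM elsewhere. Both HH libraries were lowest in 2 of the 12 lipid enzymes, against 6.58% of all tested genes. Galc, which breaks down galactosylceramide and was named after its values were seen, stood at 24.8 to 30.3 CPM after the second TTX and 26.3 to 31.2 CPM after vehicle.

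Of 9 tested lineage transcription factors 8 lay above 0 and 0 passed (median 0.32). Sox8 had a log2 change of 0.53 ± 0.12, Tcf7l2 of 0.64 ± 0.16, Olig2 of 0.32 ± 0.088 and Sox10 of 0.54 ± 0.18 (edgeR adjusted p from 0.258 to 0.525). Both HH libraries were lowest in 6 of these 9, against 6.58% of all tested genes. The same held in 7 of 11 premyelinating genes, 8 of 12 genes of dividing cells and 3 of 8 astrocyte genes. It held in 4 of the 12 further myelin and mature oligodendrocyte genes and in 1 of 9 progenitor genes. Among inhibitors of myelination it held in 2 of 10, among axon-glia signals and receptors in 3 of 23, and among neuronal genes in 0 of 12. Of 10 inhibitors of myelination 9 lay above 0 and 0 passed (median 0.18). These included Gpr17, a receptor that holds cells at the premyelinating stage, at 0.91 ± 0.22, and Notch1 at 0.45 ± 0.11 (edgeR adjusted p = 0.280 and 0.293). Of 23 axon-glia signals and receptors 16 lay above 0 (median 0.076). The axonal growth factor Nrg1, which binds ERBB receptors, had a log2 change of -0.35 ± 0.13 and its receptor gene Erbb3 of 0.73 ± 0.34 (edgeR adjusted p = 0.586 and 0.728).

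Markers of other cells were read for the same comparison. All 9 tested progenitor genes lay above 0 (median 0.32, 0 passed), with Cspg4 at 0.39 ± 0.086 and Pdgfra at 0.32 ± 0.10. Within histories, Cspg4 had 0.73 ± 0.12 in HT against HH and 0.041 ± 0.12 in TT against TH. For Pdgfra these were 0.50 ± 0.15 and 0.15 ± 0.15. The median of the 9 genes was 0.21 in HT against HH and 0.29 in TT against TH. Premyelinating genes lay above 0 in 9 of 11 (median 0.42, 0 passed), and those of dividing cells in 12 of 12 (median 0.67, 0 passed). Astrocyte genes lay above 0 in 7 of 8 (median 0.18, 0 passed), and neuronal genes lay below 0 in 11 of 12 (median -0.088, 0 passed). The summed level of the neuronal list was 4682 to 5669 CPM in the libraries given the second TTX and 5025 to 7375 CPM in the others, the highest being HH replicate 1. The part of these other cell markers in the myelin result was not tested. Microglial genes summed to 14.0 to 24.3 CPM.

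Genes with the pattern most like the mean of the 6 tested myelin genes were ranked by Pearson correlation of log2 CPM over the 8 libraries. The libraries and their scaling are shared by all genes, and the mean is dominated by TT replicate 2, so that r is a description. The 10 closest were Phldb1 (r = 0.986), Creb3l2 (0.977), Lhfpl2 (0.975), Arhgap35 (0.975), Nup214 (0.972), Gpr17 (0.971), Tpcn2 (0.971), Wscd1 (0.969), Sema5b (0.966) and Map4k4 (0.965). Phldb1 stood at 107 CPM in both HH libraries, at 136 to 157 in the next 5, and at 215 in TT replicate 2. Among the members, Cnp followed the mean of the other tested members most closely (r = 0.969), then Mag (0.917), Tspan2 (0.909), Cldn11 (0.876) and Ugt8 (0.864). Mbp (0.324), Mog (0.299) and Mobp (0.165) followed it least. By this description Cnp, Tspan2, Cldn11 and Ugt8 varied together, with TT replicate 2 weighing heavily in each r. Mbp and Mobp followed the others less and did not follow each other (r = -0.13), and Mbp was also highest in TT replicate 2. Mag and Mog rest on too few reads to place.

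**Figure D4:**
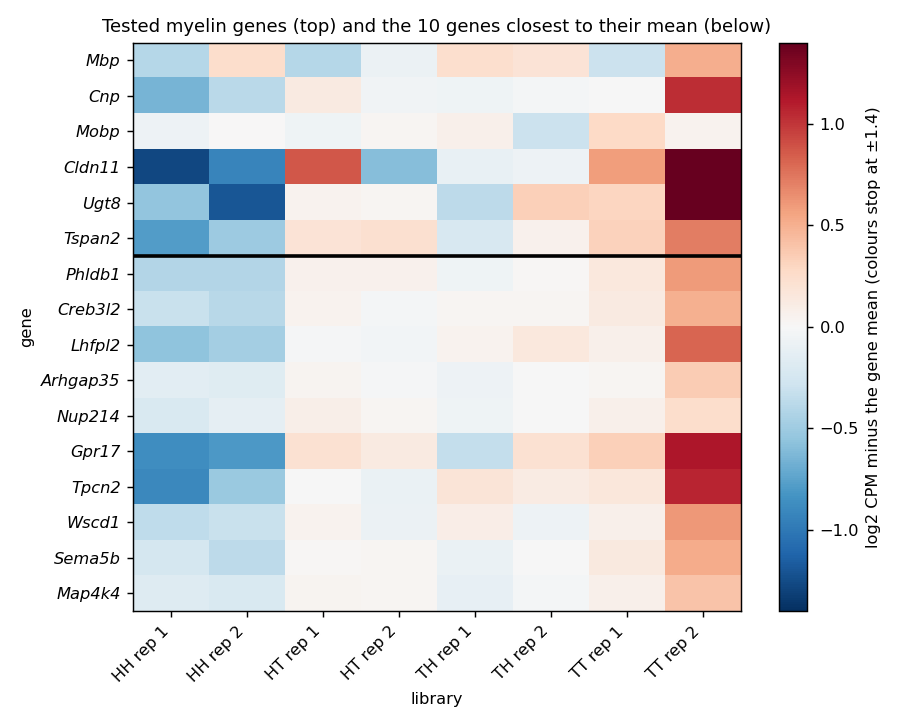
Log2 CPM minus the gene's mean (colour) in the 8 libraries (columns) for the 6 tested myelin genes (above the line) and the 10 genes with the closest profile (below). HH columns are below 0 (blue) and TT replicate 2 above 0 (red) for Cnp, Cldn11, Ugt8, Tspan2 and the 10 other genes. Arhgap35 and Nup214 are about as pale as Mobp, which stays between -0.30 and 0.28.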

How the data were processed

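BrU-seq was performed on 8 libraries in 4 groups. The authors deposited 1 table of whole-number read counts per gene symbol, not normalised. The submitters' processing notes list the rat build rn6 and the tools featureCounts, TopHat2, Bowtie2 and FastQC. Their versions, the annotation, the strand setting and the use of intronic reads were not given in the sources used here. Each column's number was looked up in the sample descriptions, and 2 columns with no matching sample were not used.

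Tests used edgeR 4.0.16 (R 4.3.3) with filterByExpr, TMM factors (trimmed mean of M values), a single model with a mean for each of the 4 groups (4 residual degrees of freedom), robust quasi-likelihood tests and Benjamini-Hochberg adjustment over 11372 genes at 0.05. The standard error is the log2 change over the square root of F. Log2 CPM used a prior count of 2. Alternatives used DESeq2 1.42.0, limma 3.58.1 (voom), other scaling, no filter, a replicate block, only the groups compared, and libraries left out. On simulated counts for 11372 genes (10 simulations, 200 genes changed), the second TTX average recovered 85.4% of 2-fold and 97.7% of 4-fold changes, and 7.01% of calls were false. HT against HH recovered 64.9% and 92.6%, with 7.73% false. Each simulated gene was drawn independently, and the changed genes were picked at random. Departures of many genes in 1 library, as seen in HH replicate 1 and TT replicate 2, were not simulated. The recovered shares need therefore not hold for the myelin genes. Named genes are the 8 members, up to 4 genes of each list by p for the second TTX average, and the 10 closest profiles, with exceptions stated where they stand. Some genes that this rule names are not reported here. Members and lists were chosen with earlier results of these data known. By a chi-square test of counts, no replicate pair was close enough to be the same library deposited again. Labels give no batch. Figures: matplotlib 3.10.9.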

Additional observations from a re-analysis of the deposited data

How the results depend on the processing

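With 2 libraries per group, no call was made for a myelin gene in the main analysis or under most alternatives. In the comparison of second TTX with vehicle over both histories the number of members called was 1, Tspan2, with DESeq2 (0.72, adjusted p = 0.0219) and 1, again Tspan2, with no low-count filter (0.72, adjusted p = 0.0176), where 13 and 16 genes in all were called against 0 by edgeR with the filter. The cause was not tested. The numbers of replicates are not stated to mark a shared culture. Deviations from the group mean correlated at 0.447 between HH and HT and from -0.0658 to 0.0867 in the other pairs, and the numbers were not taken to pair the libraries. With the replicate block 0 members were called in each comparison.

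Some changes turned sign when 1 library was left out, none of them called. Most were small, but Cnp and Mbp in TT against HT stood at 0.57 and 0.40 with all libraries. Over these omissions, Mbp ran from -0.47 to 0.17 in HT against HH, from -0.51 to 0.30 in TT against TH, from -0.030 to 0.61 in TH against HH, from -0.068 to 0.74 in TT against HT and from -0.35 to 0.060 for the second TTX. Mobp ran from -0.026 to 0.059 in HT against HH, from -0.27 to 0.10 in TH against HH and from -0.046 to 0.14 for history. Cnp in TT against HT ran from -0.048 to 0.99. The interaction ran from -0.32 to 0.49 for Mbp, from -0.50 to 0.53 for Cnp, from -0.72 to 0.77 for Cldn11 and from -0.63 to 0.47 for Ugt8. With HH replicate 1 and HT replicate 1 both left out, Mbp in TH against HH was -0.030, and the interactions of Cldn11 and Ugt8 were 0.91 and -0.31. With limma-voom the Ugt8 interaction was -0.060.

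The number of tested members whose second-TTX libraries all lay above the vehicle libraries was 1, and stayed 1 in 6 of 8 omissions of a library. It was 3 without HT replicate 2 (4.18% of tested genes) and 3 without TH replicate 2 (6.14%). These omissions and those for the order of the groups were added after the data were seen. Cldn11, Mag and Mog rest on few reads, and the depth limits what can be said of them.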
